A study of Homo sapiens with 8 samples.

Results

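The alpha-defensin locus is a 250 kb stretch of band 8p23.1 (chromosome 8, 6700001 to 6950000, GRCh37) that holds 6 defensin genes: DEFB1, DEFA6, DEFA4, DEFA1, DEFA3 and DEFA5, in that order. It was taken for description because 1 of the widest H3K27me3 peaks of the first DMSO library lies there, so the values of that peak are a description and no test was made on them. MOLM14, a long-established human cell line of acute myeloid leukaemia, has a FLT3 gene with an internal tandem duplication, which keeps this receptor tyrosine kinase active. Cells received the FLT3 inhibitor quizartinib (AC220), or DMSO as the control, for 24 h. Drosophila S2 cells went into the samples ahead of lysis, and sequencing after chromatin immunoprecipitation mapped H3K27me3, to ask whether AC220 alters the mark. The 8 samples are 2 immunoprecipitated libraries of each treatment (AC220 1 and AC220 2, DMSO 1 and DMSO 2), each with 1 deposited list of broad peaks, and 4 inputs whose values were not used here. The labels do not state that the libraries sharing a treatment stem from separate cultures. The p-values set the treatment difference beside those from exchanged library labels, and the spread between libraries may be technical. Of the 467243 peaks in the lists, 86 touched the locus: 30 in AC220 1, 18 in AC220 2, 26 in DMSO 1 and 12 in DMSO 2.

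H3K27me3 is a repressive histone modification that the Polycomb complex PRC2 deposits, and over silenced genes it can form broad domains of many kilobases. Defensins are small antimicrobial peptides rich in disulphide bonds. DEFA1, DEFA3 and DEFA4 encode neutrophil peptides that are stored in azurophil granules and are transcribed at the promyelocyte stage of granulocyte development. DEFA5 and DEFA6 are made by Paneth cells of the small intestine, and DEFB1 is a beta-defensin of epithelia. DEFA1 and DEFA3 are near-identical copies in a tandem repeat whose copy number varies between people. In RefSeq's gene order (GRCh38.p14) the copy DEFA1B lies between them, and the pseudogenes DEFA8P, DEFA9P and DEFA10P lie between DEFA4 and DEFA1. The copy number in MOLM14 was not measured here, and the sources used here do not state how reads that match several copies were placed. The peak values of DEFA1 and DEFA3 are therefore uncertain as to copy, and the part of the repeat in them was not tested.

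The peaks of the libraries numbered 2 (set 2) covered far more bases than those of the libraries numbered 1 (set 1) under both treatments. Of chromosomes 1 to 22 and X, peaks covered 6.32% in AC220 1 and 7.63% in DMSO 1, but 16.3% in AC220 2 and 19.4% in DMSO 2. Treatments are therefore compared within each set. The lists give positions and scores within a library and no read counts, so depth is unknown, and how much mark a cell carried cannot be read from them.

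The neutrophil genes DEFA1 and DEFA3 lay inside 1 unbroken peak in all 4 libraries. That peak spanned 61.4 kb in AC220 1 (6822543 to 6883916) and 68.9 kb in DMSO 1 (6815328 to 6884246). In set 2 it spanned 81.0 kb in AC220 2 (6811879 to 6892850) and 96.9 kb in DMSO 2 (6801949 to 6898857). It was narrower with AC220 in both sets, by 10.9% in set 1, where the DMSO width had chosen the locus, and by 16.4% in set 2, which the choice had not used. With gaps of up to 1 kb between peaks joined, it was not narrower in set 1, at 69.9 kb in AC220 1 and 68.9 kb in DMSO 1. Over chromosomes 1 to 22 and X the covered share was 17.2% lower with AC220 in set 1 and 15.9% lower in set 2. The peak was 31.9% wider in AC220 2 than in AC220 1 and 40.6% wider in DMSO 2 than in DMSO 1, so the sets differed more than the treatments.

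**Figure D1:**
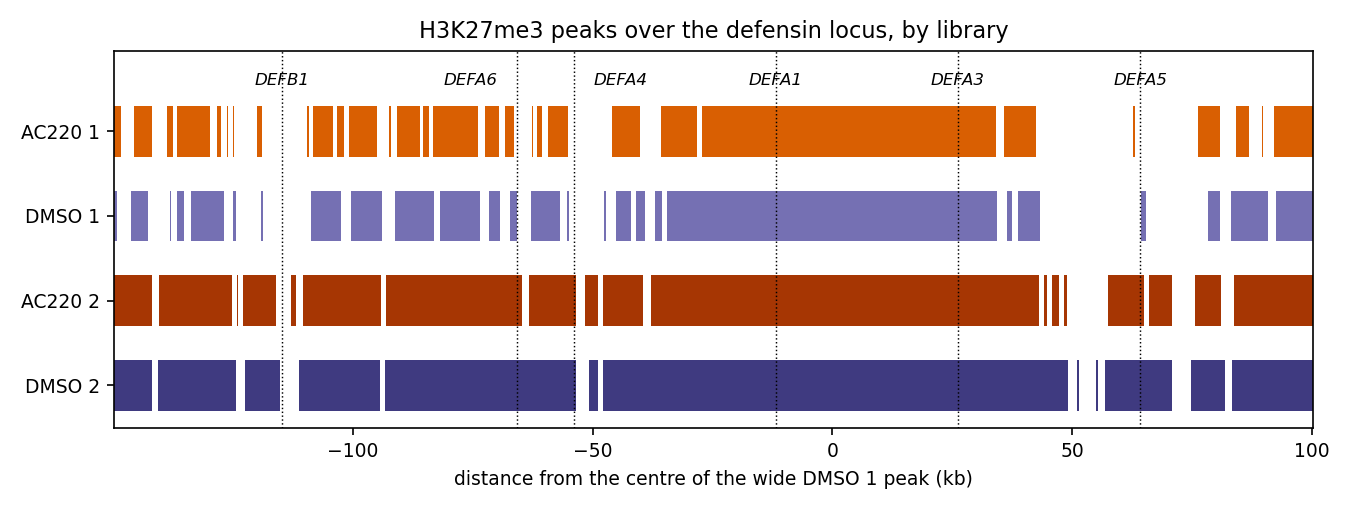
Peaks of each library (filled bars, 1 row per library) over the 250 kb locus, by distance in kb from the centre of the wide DMSO 1 peak. Dotted lines mark the starts of the 6 genes, known to 1 kb. DEFA1 and DEFA3 lie in 1 peak in every row, and the DEFB1 start lies in none.

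By width the peak was the fifth of 104517 in AC220 1 and the fifth of 104913 in DMSO 1. In set 2 it ranked 51 of 139465 in AC220 2 and 86 of 117350 in DMSO 2. In DMSO 1 the next wider peak had 71.0 kb and the next narrower one 67.4 kb. The fold enrichment, as the authors' peak caller gave it and over a background that the sources used here do not state, was 3.34 in AC220 1 and 3.46 in DMSO 1. It was 3.13 in AC220 2 and 3.61 in DMSO 2. The deposited -log10 q was 5.21 in AC220 1, above that of 99.8% of its list, and 4.63 in DMSO 1, above 99.7%. In AC220 2 it was 9.16 and in DMSO 2 it was 11.96, each above 99.9% of its own list. The peak thus stood nearer the top of every list by width and by q than by fold, which exceeded 97.8% of the list in AC220 1, 96.3% in DMSO 1, 99.0% in AC220 2 and 99.5% in DMSO 2.

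Most of the missing width with AC220 was still covered, by separate peaks. The interval of the DMSO 2 peak was covered over 94.7% of its length in AC220 2, by 5 separate peaks, and the uncovered part came to 5.18 kb. The interval of the DMSO 1 peak was covered over 98.2% in AC220 1, by 2 peaks, and 1.23 kb of it was uncovered. Both libraries of set 2 covered that interval over 100%. All 61.4 kb of the AC220 1 peak lay inside the peak of each other library, and this was the longest stretch of the locus covered in all 4.

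Edges were then compared with gaps of up to 3 kb bridged, so that a domain cut by short gaps counts as 1. In set 1 the bridged domain spanned 78.3 kb in AC220 1 (6813993 to 6892300) and 90.9 kb in DMSO 1 (6802194 to 6893075). The right edges of these domains differed by 775 bp, whereas the left edge lay 11.8 kb further right in AC220 1. In set 2 the domain spanned 162 kb in AC220 2 (6736945 to 6898709) and 163 kb in DMSO 2 (6738481 to 6901239), with DEFA6 and DEFA4 inside it under both treatments. There the left edge lay 1.54 kb further left and the right edge 2.53 kb further left in AC220 2. The left edge thus had no common direction across sets, and the right edge lay further left with AC220 in both. Bridging set the outcome of the left edge: without bridging it lay further right with AC220 in both sets, by 7.22 kb and 9.93 kb, with gaps of up to 1 kb bridged it lay 1.34 kb further left in set 1, and with gaps of up to 10 kb bridged 91.3 kb further left. With gaps of up to 3 kb, of up to 1 kb or none bridged, the right edge lay between DEFA3 and DEFA5 in every library. Without bridging it lay further left with AC220 again, by 330 bp in set 1 and 6.01 kb in set 2. With gaps of up to 10 kb bridged it lay 0.775 kb further left with AC220 in set 1 and 0.527 kb further right in set 2, where the bridged domain ran past DEFA5.

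The 6 genes differed widely in how much of their start lay under the mark, and the value per gene below is the share of 4 kb around the start (2 kb to each side) inside peaks. Starts are known to 1 kb, so where a peak ends less than 1 kb from a start, the side on which the start lies is uncertain. DEFA1 and DEFA3 were covered over 100% in AC220 1, AC220 2, DMSO 1 and DMSO 2 alike. The whole 38 kb from the DEFA1 start to the DEFA3 start was also covered over 100% in every library. No treatment difference was measurable at these starts, since a peak list cannot show a change of level inside a peak.

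DEFA4, the neutrophil gene that lies outside the repeat, was covered less. Its share was 15.4% in AC220 1 and 14.5% in DMSO 1, with 60.2% in AC220 2 and 59.3% in DMSO 2. The treatments differed by less than 1 percentage point in both sets, and the sets did not overlap. With 5 kb to each side the share was 36.1% in AC220 1 and 26.0% in DMSO 1, with 81.9% in AC220 2 and 70.9% in DMSO 2, the AC220 value being the higher each time. With peaks of a -log10 q under 2 left out, DEFA4 was at 0% in both libraries of set 1. In set 1 the DEFA4 start lay in a stretch without peaks of 9.17 kb in AC220 1 and 7.27 kb in DMSO 1. In set 2 it lay at the right end of a peak in both libraries, 0.4 kb from a stretch of 1.77 kb (6796410 to 6798176) that no library covered.

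The Paneth cell genes were covered less with AC220 than with DMSO in both sets. DEFA6 had a covered share of 36.2% in AC220 1 and 39.6% in DMSO 1, with 75.3% in AC220 2 and 100% in DMSO 2. DEFA5 had 12.8% in AC220 1 and 23.4% in DMSO 1, with 74.6% in AC220 2 and 100% in DMSO 2. The DEFA6 share was thus 8.47% lower with AC220 in set 1 and 24.75% lower in set 2. For DEFA5 it was 45.3% and 25.4% lower, beside 17.2% and 15.9% over chromosomes 1 to 22 and X. With 1 kb to each side DEFA6 was covered over 100% in both libraries of set 2, so that its difference there lay further from the start, and DEFA5 was at 90.8% in AC220 2 and 100% in DMSO 2. In set 1 DEFA6 was then at 22.4% in AC220 1 and 55.1% in DMSO 1, and DEFA5 at 1.5% and 36.5%. For both genes each set 2 library was above each set 1 library. Averaged over sets, DEFA6 stood at 55.7% ± 27.6 with AC220 and 69.8% ± 42.7 with DMSO (SD, n = 2 each), and DEFA5 at 43.7% ± 43.7 and 61.7% ± 54.2. Neither difference reached the SD of AC220 or that of DMSO. Each SD holds the gap between the sets, so it does not measure the spread of a difference within sets. In set 1 the peaks nearest to the DEFA5 start were short, 0.512 kb in AC220 1 and 0.936 kb in DMSO 1, with a -log10 q of 1.09 and 1.47. With peaks of a -log10 q under 2 left out, the DEFA5 share was 0% in both libraries of set 1, and that of DEFA6 was 0% in AC220 1 and 39.6% in DMSO 1.

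DEFB1, the epithelial beta-defensin gene, was the least covered. Its share was 0% in both AC220 1 and DMSO 1, with 22.1% in AC220 2 and 40.7% in DMSO 2. Its start lay in no peak of any library, though 0.4 kb from one in DMSO 2. It lay in a stretch without peaks of 9.48 kb in AC220 1 and 10.1 kb in DMSO 1, and within the 2.32 kb (6734628 to 6736944) that all 4 libraries left uncovered. The order by covered share was thus DEFA1 with DEFA3, then DEFA6, with DEFB1 last, in all 4 libraries. Between DEFA6 and DEFB1 the order of DEFA4 and DEFA5 differed by library: DEFA4 was above DEFA5 in AC220 1 and below it in the other libraries, and in DMSO 2 DEFA5 equalled DEFA6 and the neutrophil pair. With 5 kb to each side this order did not hold throughout: DEFB1, at 8.15%, was above DEFA5, at 5.12%, in AC220 1, and DEFA5, at 89.8%, was above DEFA6, at 85.3%, in AC220 2.

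**Figure D2:**
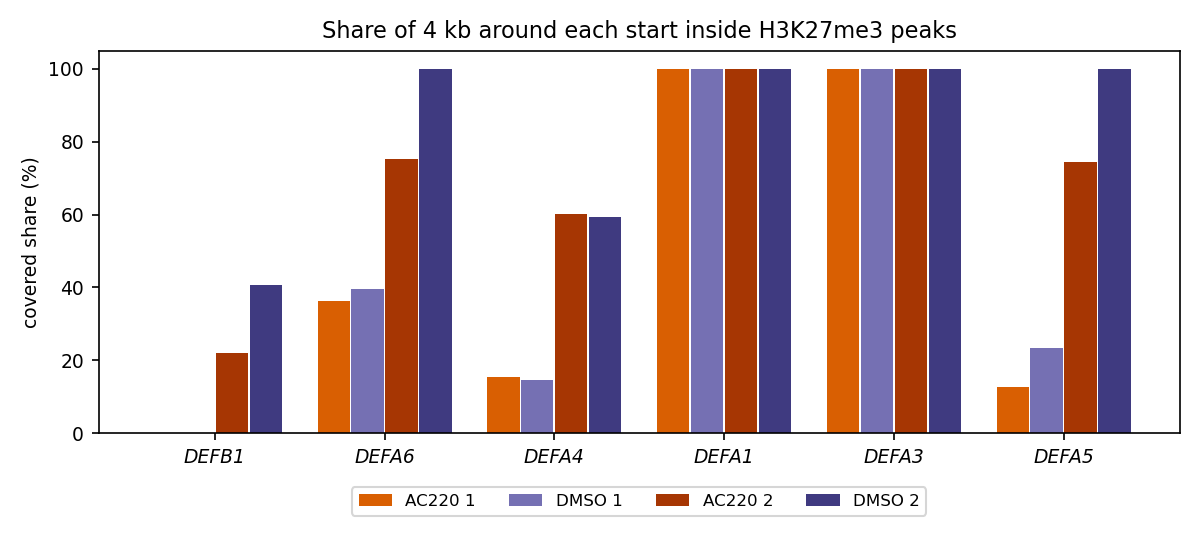
Covered share (%) of 4 kb around the start of each gene, 1 bar per library, AC220 left of DMSO within each set. All bars of DEFA1 and DEFA3 stand at 100%, and DEFB1 has no bar in set 1.

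In the locus as a whole, peaks covered 60.0% in AC220 1 and 61.4% in DMSO 1, with 85.8% in AC220 2 and 90.3% in DMSO 2. The share was 2.21% lower with AC220 in set 1 and 4.98% lower in set 2. Over chromosomes 1 to 22 and X it was 17.2% and 15.9% lower. With peaks of a -log10 q under 2 left out, the locus was covered over 36.5% in AC220 1 and 47.9% in DMSO 1, which is 23.8% lower, and over 83.3% in AC220 2 and 90.0% in DMSO 2, which is 7.46% lower. The genome-wide share was then 26.5% lower in set 1 and 24.3% lower in set 2. With each DMSO list trimmed to the covered length of its AC220 list, genome-wide shares matched by construction. The locus was then 0.384% lower with AC220 in set 1 and 4.61% lower in set 2. The AC220 lists had more peaks in the locus and shorter ones. The median width there was 2850 bp with AC220 against 2936 bp with DMSO in set 1. For set 2 it was 7331 bp against 15162 bp. Medians of the whole lists were also shorter with AC220: 996 bp against 1211 bp for set 1, 1614 bp against 2323 bp for set 2. Over chromosomes 1 to 22 and X, AC220 had more peaks in set 2 (139465 against 117350), but not in set 1 (104517 against 104913). Shorter peaks with AC220 therefore do not set the locus apart. Averaged over sets the covered share of the locus was 72.9% ± 18.2 with AC220 and 75.9% ± 20.5 with DMSO (SD, n = 2 each). The difference was smaller than either SD, but each SD holds the gap between the sets.

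The bases outside the wide DMSO 1 peak, 181 kb in all, had not been used to choose the locus, although they adjoin it. Of these, 45.5% was covered in AC220 1 and 46.7% in DMSO 1, with 80.4% in AC220 2 and 86.7% in DMSO 2. The mean log2 difference, AC220 minus DMSO, was -0.07, within the SD of 0.58 for AC220 and 0.63 for DMSO on the log2 scale (exact permutation test, two-sided, p = 0.667). With 2 libraries against 2 this test cannot give a p below 0.333. The labels were exchanged across sets, so the gap in covered length between sets entered both the SDs and this p. The direction rested on keeping the sets balanced: without AC220 1 the difference was 0.34 and without DMSO 2 it was 0.37, against -0.48 without AC220 2 and -0.52 without DMSO 1. With peaks of a -log10 q of at least 2 the difference was -0.64, since 13.0% was then covered in AC220 1 and 28.1% in DMSO 1 (exact permutation p = 0.667).

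The sides of the wide peak were then taken apart, a split that was not tested. To its left, toward DEFA4, DEFA6 and DEFB1, the covered share was 52.0% in both AC220 1 and DMSO 1, with 87.0% in AC220 2 and 89.5% in DMSO 2. To its right, toward DEFA5, it was 34.2% in AC220 1 and 37.5% in DMSO 1, with 68.9% in AC220 2 and 81.7% in DMSO 2. Between the DEFA3 and DEFA5 starts the sets went opposite ways, with 39.5% in AC220 1 and 36.2% in DMSO 1, with 68.6% in AC220 2 and 82.0% in DMSO 2. The longest stretch without peaks in set 1 lay there, 20.2 kb in AC220 1 (6892301 to 6912518) and 21.2 kb in DMSO 1 (6893076 to 6914270).

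Coverage was next compared in steps of 1 kb. For a window to count as lower with AC220, both AC220 shares had to lie 25 percentage points or more below both DMSO shares, and to count as higher, above them by that much. Of the 250 windows, 2 were lower (0.8%), beside 0.542% of the 3036292 windows of chromosomes 1 to 22 and X and 2.07% of those with a peak in any library. No window was higher, beside 0.167% of all windows and 0.638% of those with a peak. Among the 241 locus windows with a peak, 0.83% were lower, below the 2.07% genome-wide. The 102 windows fully covered in all 4 libraries and the 9 without a peak could not be called. These counts therefore cannot decide whether the locus differs from the background. The same 2 windows differed by at least 25 points within each set, with none higher, beside 0.811% lower and 0.247% higher among all windows and 3.09% and 0.942% among those with a peak. The weakest peaks of each DMSO list were then removed until it covered no more than the AC220 list of its set. The locus again had 2 lower windows and 0 higher. The background was then 0.259% lower and 0.383% higher among all windows, or 7872 and 11615 of the 720531 windows with a peak. With a library left out the sets are unbalanced and the rule is easier to meet, so counts changed genome-wide too. Lower windows numbered 21 (8.4%, beside 7.01% of all windows) without DMSO 1 and 30 (12%, beside 4.23%) without AC220 2. Higher windows numbered 4 (1.6%, beside 2.94%) without AC220 1 and 28 (11.2%, beside 2.51%) without DMSO 2. Every called window holds a peak, as 241 of the 250 locus windows did, against 796415 of the 3036292 genome-wide. Shares of all windows are thus not a like background for these counts. Among the 796415 windows with a peak, 212994 were lower without DMSO 1 and 128462 without AC220 2. Higher ones numbered 89292 without AC220 1 and 76183 without DMSO 2.

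The first of the 2 lower windows began at 6810 kb, just left of the wide peak and between DEFA4 and DEFA1. It was covered over 0% in AC220 1, 32.3% in AC220 2, 66.4% in DMSO 1 and 100% in DMSO 2. The other began at 6933 kb, to the right of DEFA5, with 0% in AC220 1, 35.3% in AC220 2, 100% in DMSO 1 and 90.1% in DMSO 2. Neither holds the start of a defensin gene. The windows were chosen by this contrast, so their values are a description.

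Within sets, differences of at least 25 points were more frequent. In set 1, 30 windows were lower with AC220 (12%, beside 4.65% of all windows and 17.7% of those with a peak) and 28 were higher (11.2%, beside 2.87% and 11%). Of the 30, 21 lay left of the wide DMSO 1 peak, 2 inside it and 7 to its right, and of the 28 higher windows 20 lay left, 1 inside and 7 right. In set 2, 21 were lower (8.4%, beside 7.24% and 27.6%) and 5 were higher (2.0%, beside 3.16% and 12%). There 9 of the 21 lay left of the wide peak and 12 to its right, with none inside, and all 5 higher windows lay left. Differences of any size went the same way in both sets in 10 windows, all lower with AC220, and opposite ways in 2. The genome-wide share of such windows was not computed, so those counts are a description. The AC220 lists covered fewer bases genome-wide in both sets. Among the 241 locus windows with a peak, 12.4% were lower and 11.6% higher in set 1, beside 17.7% and 11% genome-wide. In set 2, 8.71% were lower and 2.07% higher, below the 27.6% and 12% genome-wide. There 205 of the 250 windows had the same share under both treatments, and the part of the high covered share in these counts was not tested. Of the 250 windows, 102 were fully covered in all 4 libraries and 9 held no peak in any.

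**Figure D3:**
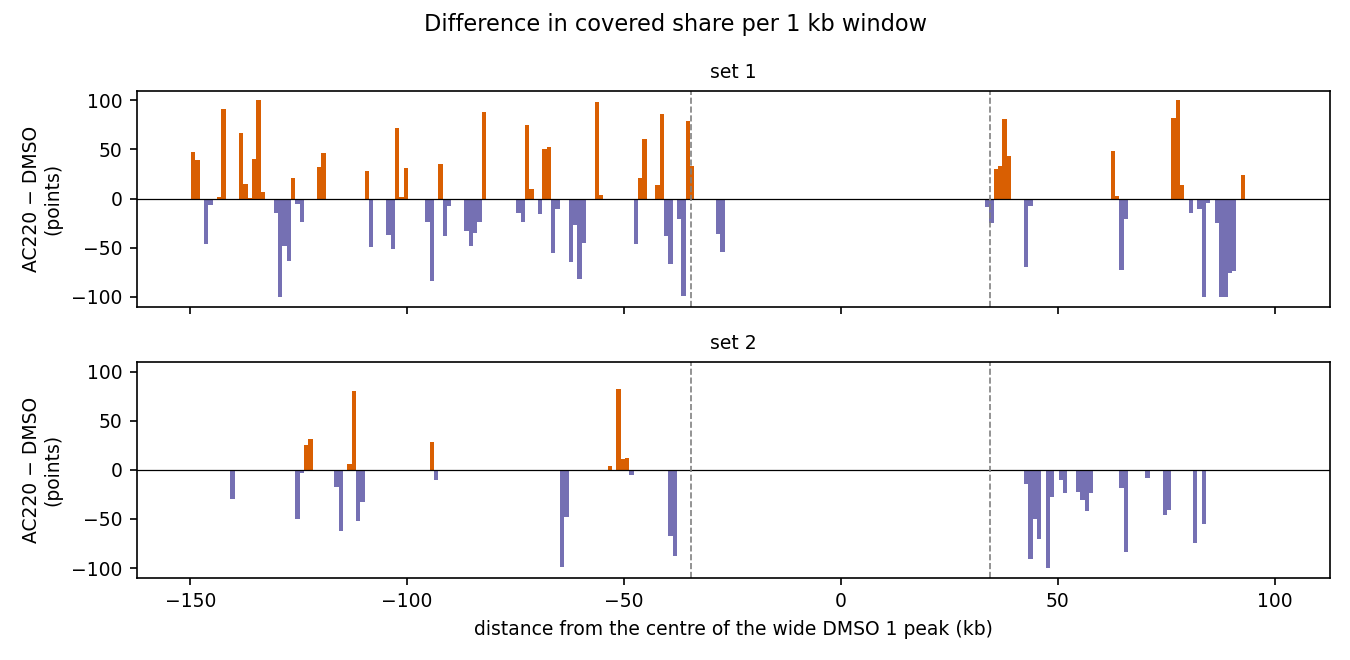
Difference in covered share (AC220 minus DMSO, percentage points) for each 1 kb window of the locus, set 1 above and set 2 below, by distance in kb from the centre of the wide DMSO 1 peak. Dashed lines mark the ends of that peak: between them set 2 has no difference and set 1 has few.

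Joint coverage was then taken in bases. All 4 libraries covered 131 kb of the locus, 52.4% of it, and no library covered 20.6 kb. Both AC220 libraries without either DMSO library covered 0 kb, and both DMSO libraries without either AC220 library covered 1.80 kb. Both set 2 libraries without either set 1 library covered 42.0 kb, and the reverse was 0 kb. Such lengths were not computed genome-wide, where the DMSO lists and the set 2 lists also covered more bases. The lengths are therefore a description, and whether they are particular to the locus was not tested. In set 1, 18.8 kb was covered in AC220 1 and not in DMSO 1 while 22.2 kb was covered in DMSO 1 and not in AC220 1. In set 2 these lengths were 3.13 kb and 14.4 kb. The length shared by a pair of libraries over the length covered in either (Jaccard index) came to 0.762 for AC220 1 and DMSO 1 in the locus, beside 0.444 genome-wide, and to 0.924 for AC220 2 and DMSO 2, beside 0.652. The AC220 libraries had an index of 0.697 with each other and the DMSO libraries 0.674, beside 0.356 and 0.366 genome-wide. An index grows with the share covered, which is high in the locus, so the gap from the genome-wide values is a description.

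The surroundings of the locus were covered far less than the locus itself. In the rest of band 8p23.1 the covered share was 24.8% in AC220 1 and 29.6% in DMSO 1, with 42.7% in AC220 2 and 46.0% in DMSO 2. On chromosome 8 as a whole it was 8.77% in AC220 1 and 11.9% in DMSO 1, with 22.1% in AC220 2 and 27% in DMSO 2. The locus had a higher covered share than 99.8% of the 12114 tiles of 250 kb in AC220 1, 99.7% in AC220 2, 99.5% in DMSO 1 and 99.7% in DMSO 2. Being picked for a wide peak places it high in such a ranking. The log2 ratio of AC220 to DMSO in the locus was -0.03 in set 1 and -0.07 in set 2. Over the 5236 tiles with at least 2% covered in every library the median was -0.22 in set 1 and -0.14 in set 2. Among tiles covered over at least 50% in the DMSO library of the set, the median was -0.21 in set 1 (165 tiles) and -0.17 in set 2 (1582 tiles). The locus lay above 86.1% of such tiles in set 1 and above 71.6% in set 2. In the lists as deposited, its difference between treatments was thus closer to 0 than at the median densely covered tile in each set, and within the range of the tiles. The locus was among the densest tiles, and the part of its high covered share in this difference was not tested. Tile values were not computed with trimmed DMSO lists. With those lists the locus stayed lower with AC220 in both sets while the genome-wide shares matched, so its place beside the genome depended on list length.

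**Figure D4:**
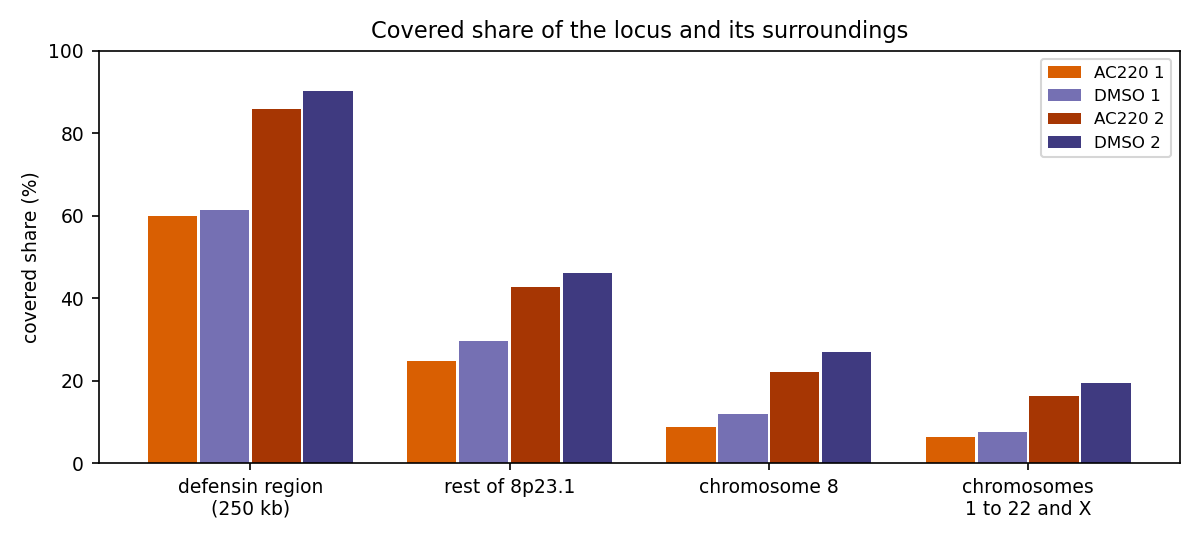
Covered share (%) of the defensin region, of the rest of band 8p23.1, of chromosome 8 and of chromosomes 1 to 22 and X, 1 bar per library, AC220 left of DMSO within each set. The locus stands above its surroundings in every library, from 60.0% to 90.3%.

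The wide DMSO 1 peak was last set beside the other 19 DMSO 1 peaks of at least 50 kb, which share its manner of choice. The defensin peak was covered over 98.2% in AC220 1. The others ranged from 89.6% to 100% there, with a median of 96.6%, and 12 of the 19 were lower than the defensin peak. In AC220 2 the others ranged from 98.3% to 100%, and in DMSO 2 all 19 were covered over 100%, like the defensin peak. By fold enrichment in DMSO 1 the defensin peak, at 3.46, was above 4 of the 19, and by -log10 q, at 4.63, above 16. A peak of 60.4 kb in the same band (11533052 to 11593435) was covered over 99.1% in AC220 1. The defensin peak thus lay within the range of the other wide peaks by each of these measures.

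**Figure D5:**
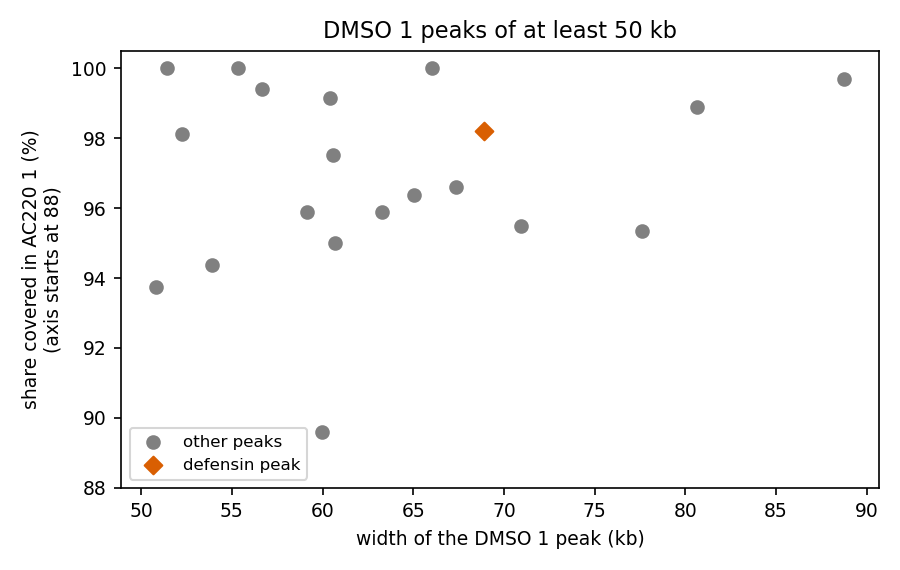
Each point is 1 of the 20 DMSO 1 peaks of at least 50 kb: its width (kb) against the share of it (%) covered by AC220 1 peaks, on an axis that starts at 88. The defensin peak (diamond, 68.9 kb and 98.2%) lies among the others.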

How the data were processed

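The submitters' processing notes list BWA 0.7.10-r789 and MACS2 2.1 and do not say what each did or with which options. Broad peaks were deposited as 1 list for each immunoprecipitated library, hence called library by library. The lists give positions in bp, and for each peak a fold enrichment deposited as a ratio over a background that is not stated. They also give a deposited p-value and q-value as -log10, and a deposited score, which was not used. The sources used here give neither the genome build nor any use of inputs or Drosophila reads in the calls. By position, the highest peak end on chromosome 1, 249236554, is within the GRCh37 length of 249250621 in the hg19 table of circlize 0.4.16 (R 4.3.3), which also gave the bands.

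The region, the members and their starts (known to 1 kb) were chosen with earlier results of these data known, and all 6 members are named. No annotation of this build was used. The spacing of the starts differed by at most 0.86 kb from a GRCh38.p14 gene table, used for gene names and order alone. Treatment and number came from the sample titles.

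Covered share is the percentage of bases inside any peak of a library. It was computed in numpy 2.4.6 and pandas 2.3.3, under Python 3.11.15, over the region, windows of 1 kb, tiles of 250 kb and 2 kb to each side of each start, and figures were drawn with matplotlib 3.10.9. Depth is unknown, so no interval or floor that needs it is given. Only the bases outside the wide DMSO 1 peak were tested, by an exact permutation over 6 assignments of the libraries. The window calls were checked on simulated peak lists with planted windows, in which the treatments differed far beyond the threshold. That is a check of the computation and does not measure false calls. Alternatives were a stricter q, trimmed DMSO lists, other gaps, thresholds and gene windows, a block by number, and each library left out. The 20 DMSO 1 peaks of at least 50 kb, the within-set windows and the joint lengths were added after the data had been seen.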

Additional observations from a re-analysis of the deposited data

How the results depend on the processing

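The tested value, the log2 difference outside the wide peak, was -0.07, ran from -0.52 to 0.37 with each library left out, and was -0.04 with trimmed DMSO lists. The 2 windows called lower became 1 at a separation of 50 points and 1 with a -log10 q of at least 2, and 2 to 30 with a library left out; windows called higher numbered 0 to 28. The background of 16464 lower and 5083 higher windows genome-wide became 3337 and 520 with the stricter q, 7586 and 1816 at 50 points, 25090 and 8541 at 10 points, and 7872 and 11615 with trimmed lists. The mean difference in bridged domain width, AC220 minus DMSO, was -6.78 kb, was 45.5 kb with gaps of up to 10 kb bridged, 0.974 kb with trimmed lists and -35.7 kb with the stricter q, and ran from -48.5 to 34.9 kb with a library left out. For the whole region the difference of -2.93 points was -9.07 with the stricter q and ran from -17.4 to 11.5, and for the wide peak interval -0.89 points ran from -1.78 to 0. Leaving out a library unbalances the sets, whose peaks cover unequal lengths.

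With the replicate number as a block the tested difference was again -0.07 (exact permutation within numbers, p = 0.5, the smallest that 2 pairs allow), and 2 windows were lower and 0 higher. The labels do not say that a number marks a shared culture or day. Deviations from the treatment means of same-numbered libraries had a correlation of 0.93 across 12114 tiles, a value that 2 pairs cannot tell apart from the gap in covered length.

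Depth is unknown, and a stretch without a peak is not shown to lack the mark: 42.0 kb of the locus was listed in both set 2 libraries and in neither of set 1.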
